A study of Mus musculus with 12 samples.

Results

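Imprinted genes are transcribed mainly from the copy inherited from a single parent, and many of them set how much embryonic muscle, placenta and other fetal tissue grows. The measurements here concern 10 of them, chosen by name as imprinted growth genes and not by a rule on their values, although earlier results of these data were known. They are Igf2, H19 and Cdkn1c of distal chromosome 7, Dlk1, Meg3 and Rian of chromosome 12, and Peg3, Mest, Plagl1 and Grb10. All 10 were found among the 38898 genes in the files, and all 10 passed the filter on low counts that left 17602 genes for testing.

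RNA-seq was performed on 12 bulk flank tumors, 3 from each of 4 treatment groups of WT C57/Bl6J mice aged 8 to 12 weeks. All tumors grew from Rd76-9 cells, a single mouse embryonal rhabdomyosarcoma line, and were collected on day 16. The vehicle group (m1, m2 and m3) was given saline and empty nanoparticles. The VCR group (m4, m5 and m6) was given vincristine, a drug that blocks microtubules, at 0.25 mg/kg every 7 days. The RCM1-NPFA group (m7, m8 and m9) was given 8 µg of RCM1, an inhibitor of the transcription factor FOXM1, in nanoparticles carrying folic acid, every 48 h. The VCR + RCM1-NPFA group (m10, m11 and m12) was given both. A treatment label of the vehicle tumors also names RCM1, so these tumors were assigned by their titles.

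The files held 29342195 to 32108055 estimated read counts per tumor. Markers of several cell types differed between the groups. The summed level of 22 mature muscle fibre genes was 315 to 459 CPM (read counts scaled to library size) in vehicle tumors, 2262 to 14610 CPM after VCR, 420 to 21800 CPM after RCM1-NPFA and 840 to 5679 CPM after both drugs. Tumors m5 and m9 held most of it. Whether this RNA came from the rhabdomyosarcoma cells or from muscle of the host was not tested. The summed level of 7 fibroblast genes was 2477 to 3029 CPM in vehicle tumors and 3370 to 3576 CPM after VCR. It was 3012 to 4135 CPM after RCM1-NPFA and 3121 to 3549 CPM after both drugs. Myod1 and Myog, which define skeletal muscle identity, were near 0 in vehicle tumors, at most 0.0306 and 0.0767 TPM (a level scaled to transcript length and library size). In RCM1-NPFA tumors m7 and m8 they were also low, Myod1 at 0.0312 and 0 TPM and Myog at 0 and 0.328 TPM. Over the VCR tumors, the combination tumors and m9, Myod1 ran from 0.414 to 2.19 TPM and Myog from 0.608 to 2.44 TPM. Des, another muscle gene, was at 5.77, 4.45 and 5.88 TPM in the vehicle tumors. Summed Y-linked transcripts (Ddx3y, Eif2s3y, Kdm5d and Uty) also split the tumors: 7 held 15.6 to 25.8 CPM (m3, m4, m6, m8, m9, m11 and m12) and 5 held 0.51 to 1.33 CPM (m1, m2, m5, m7 and m10). The labels do not give the sex of the mice, and the line came from a female mouse. In bulk tissue, fewer cells of a type and less RNA per cell cannot be told apart, and the parental origin of the transcripts was not measured.

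Igf2 encodes a fetal growth factor, and H19, its neighbour, is a noncoding RNA read from the opposite parental copy under shared enhancers. Dlk1 encodes a membrane protein of the Notch ligand family that restrains differentiation of progenitor cells, and on the same chromosome the noncoding RNAs Meg3 and Rian are read from the opposite parental copy. Grb10 encodes an adaptor that binds the insulin and IGF1 receptors and dampens their signal, and Cdkn1c encodes the cell cycle inhibitor p57. Peg3 and Plagl1 encode zinc finger proteins, and Mest encodes a protein related to hydrolases.

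Several of these genes also carry microRNAs, which are shown because they are the small RNAs encoded within several members. RefSeq places 8 microRNA genes, with 15 mature sequences, within 5 of the 10 genes, and no seed is shared among the 15. Below, 8 of them are given 5′ to 3′, with the seed (bases 2 to 8) in capitals. miR-770 lies within Meg3, miR-370, miR-341 and miR-1188 within Rian, miR-675 within H19, miR-483 within Igf2 and miR-335 within Mest.
miR-770-5p: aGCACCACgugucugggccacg
miR-370-3p: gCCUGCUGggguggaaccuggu
miR-341-3p: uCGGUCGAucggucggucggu
miR-1188-5p: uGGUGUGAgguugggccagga
miR-675-5p: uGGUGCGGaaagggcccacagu
miR-675-3p: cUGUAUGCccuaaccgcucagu
miR-483-5p: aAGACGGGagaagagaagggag
miR-335-5p: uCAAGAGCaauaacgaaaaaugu
The libraries were made from polyadenylated RNA and did not measure mature microRNAs, so the values below are those of the long host transcripts.

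Meg3 and Rian lie on the same strand of chromosome 12 (GRCm38, chr12:109540996-109571729 and chr12:109603945-109661716, both on the plus strand), and their levels moved together in these tumors. The RefSeq promoter windows at the first annotated start of both genes, 250 bases before to 50 bases after it, are printed to show how they differ in sequence. The first is chr12:109540746-109541045 and the second chr12:109603695-109603994, both on the plus strand. Capitals mark matches to TGACGTCA, the cyclic AMP response element, or to TATAAA on either strand.
Meg3: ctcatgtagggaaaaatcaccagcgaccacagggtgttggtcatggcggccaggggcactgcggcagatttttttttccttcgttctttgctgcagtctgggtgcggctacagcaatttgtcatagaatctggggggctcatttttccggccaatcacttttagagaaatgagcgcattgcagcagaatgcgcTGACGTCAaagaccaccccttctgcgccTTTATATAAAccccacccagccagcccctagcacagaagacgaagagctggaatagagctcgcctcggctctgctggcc
Rian: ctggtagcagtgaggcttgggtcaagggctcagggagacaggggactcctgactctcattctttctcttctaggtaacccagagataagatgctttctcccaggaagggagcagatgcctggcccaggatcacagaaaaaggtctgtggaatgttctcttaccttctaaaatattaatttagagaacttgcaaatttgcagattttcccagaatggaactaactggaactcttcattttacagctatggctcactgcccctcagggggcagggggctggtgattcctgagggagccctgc
This first Meg3 window held TGACGTCA 57 bases before the start, and overlapping TATAAA matches 29 bases before it on the minus strand and 25 bases before it on the plus strand. A second Meg3 window, at a start (chr12:109545398) whose transcript held 7.48% of the gene's mean TPM, and the Rian window held none of these, nor CAGCTG (the E-box bound by MyoD-type factors) or GGGCGG (the GC box). Of 32851 RefSeq promoter windows of this length, 1.79% held TGACGTCA, 13.62% TATAAA, 16.3% CAGCTG and 35.66% GGGCGG, each sought on both strands. Among the 8 members with a promoter entry, Peg3 was the other with TGACGTCA, 178 bases before its start.

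The 10 genes spanned a wide range of levels. Mest and H19 had the highest mean TPM over the 12 tumors, 302 and 233, above 97.59% and 96.73% of the tested genes. Peg3 followed at 35.4 TPM, then Meg3 at 12.6, Igf2 at 8.40, Rian at 3.88, Grb10 at 3.33, Dlk1 at 2.71, Cdkn1c at 1.23 and Plagl1 at 0.140 TPM. In this order, H19 and Peg3, and Cdkn1c and Plagl1, were the neighbours whose ranges did not overlap, and the other 7 pairs of neighbours overlapped. Rian exceeded Grb10 in 7 of 12 tumors. The embryonal growth factor itself was thus a mid-range transcript, with Igf2 above 47.54% of the tested genes, and Plagl1 was low, with 1 to 26 counts per tumor.

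**Figure D1:**
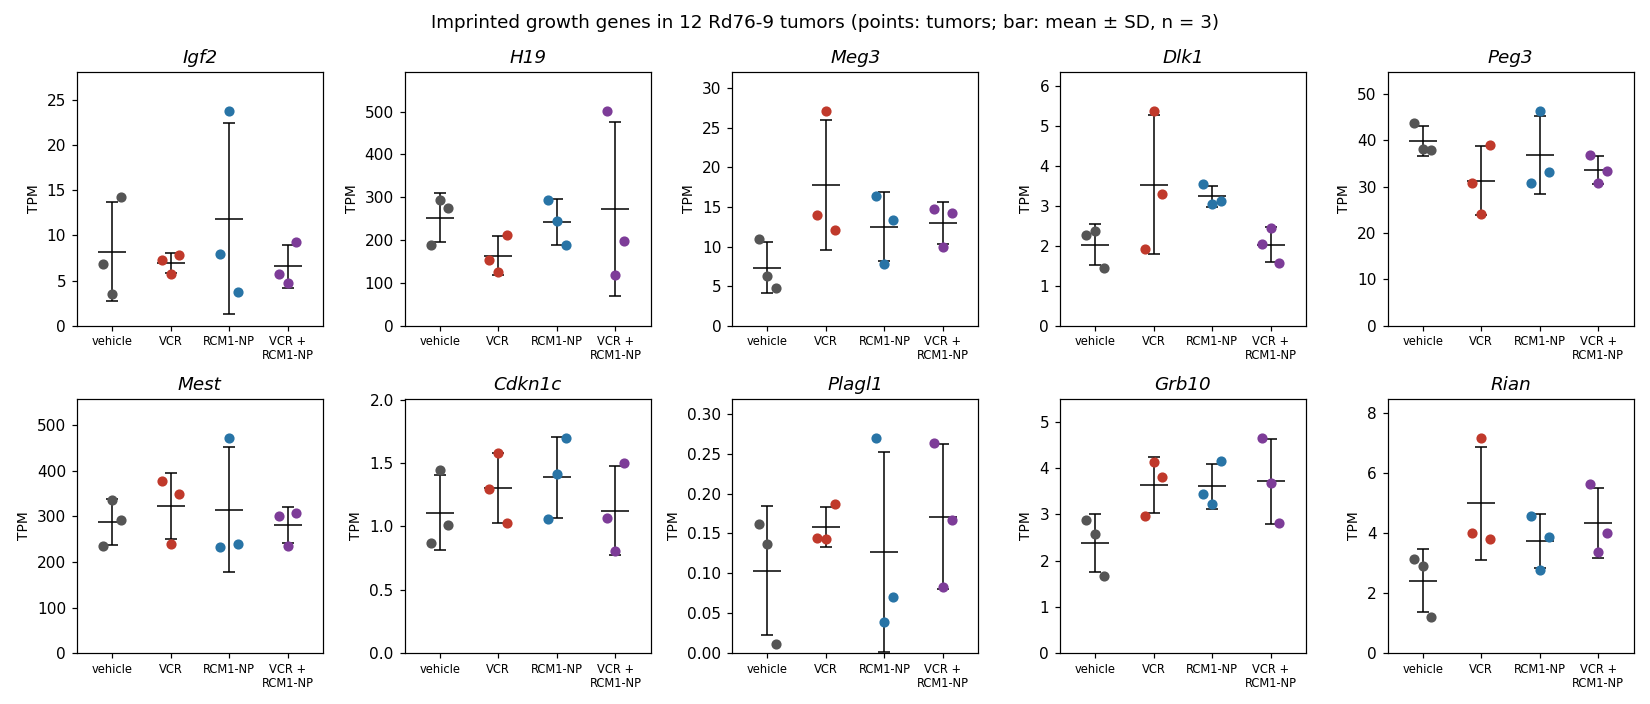
TPM of the 10 imprinted genes by treatment group, each gene on its own linear axis, with a point for each of the 12 tumors and bars for the group mean ± SD (n = 3). H19 and Mest reach 119 to 502 TPM and Plagl1 0.0112 to 0.270 TPM, and the 3 VCR points of Meg3, Rian and Grb10 lie above the 3 vehicle points.

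Compared to vehicle, VCR-treated tumors held more Meg3. Meg3 was at 10.9, 6.23 and 4.79 TPM in the vehicle tumors, 14.0, 27.2 and 12.1 TPM after VCR, 16.3, 7.77 and 13.4 TPM after RCM1-NPFA and 14.7, 9.89 and 14.3 TPM after both drugs. Every VCR tumor lay above every vehicle tumor, m5 was the highest of the 12, and the RCM1-NPFA and combination groups overlapped with vehicle. The group means were 7.31 ± 3.20 TPM (SD, n = 3) in vehicle tumors and 17.8 ± 8.20 TPM after VCR. Meg3 rose by 1.29 on the log2 scale (SE 0.37, 95% interval 0.48 to 2.10, adjusted p = 0.0964, edgeR quasi-likelihood test with Benjamini-Hochberg adjustment, threshold 0.1). It was 1 of the 10 genes called in this comparison, against 977 of the 17602 genes tested (5.55%).

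The call on Meg3 depended on the tool and on single tumors. It was kept by DESeq2 on all 12 tumors (adjusted p = 0.0368) and on the 2 groups alone (0.0919), and lost with limma-voom (0.115) and with edgeR on the 2 groups alone (0.143). It was also lost without m2, m3, m4, m5, m10, m11 or m12 in turn, with adjusted p of 0.120 to 0.369, and the log2 difference ran from 0.85 without m5 to 1.67 without m1. Without m5 and m9 together, the tumors with most muscle fibre RNA, it was 0.84 (adjusted p = 0.355). Among tumors with Y-linked transcripts Meg3 was at 4.79 TPM in the vehicle tumor and 14.0 and 12.1 TPM after VCR, and among those without, 10.9 and 6.23 TPM in vehicle tumors and 27.2 TPM after VCR. Each class held a single tumor of one of the groups.

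Rian, which hosts small nucleolar RNAs and microRNAs, followed the same order. Rian was at 3.13, 2.90 and 1.20 TPM in the vehicle tumors, 4.01, 7.18 and 3.81 TPM after VCR, 4.57, 2.78 and 3.87 TPM after RCM1-NPFA and 5.65, 3.38 and 4.02 TPM after both drugs. The VCR and combination tumors lay above all vehicle tumors, with m3 the lowest of the 12 and m5 the highest. The log2 difference between VCR and vehicle was 1.16 (SE 0.35, 95% interval 0.38 to 1.93), with an adjusted p of 0.105 that missed the threshold in edgeR. DESeq2 called Rian after VCR on all 12 tumors and on the 2 groups alone, and limma-voom did not. The edgeR difference was 0.75 without m5. The combination differed from vehicle by 0.86 (SE 0.35, adjusted p = 0.682), and RCM1-NPFA by 0.68 (SE 0.35, adjusted p = 0.572). Without m3 these were 0.56 and 0.39.

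Dlk1, the protein-coding gene of this cluster, had another pattern. Dlk1 was at 2.27, 2.38 and 1.44 TPM in the vehicle tumors, 1.93, 5.38 and 3.29 TPM after VCR, 3.54, 3.04 and 3.13 TPM after RCM1-NPFA and 2.05, 2.45 and 1.58 TPM after both drugs. Every RCM1-NPFA tumor lay above every vehicle and every combination tumor, and the VCR group spanned both. None of these differences passed the test. The log2 difference from vehicle was 0.90 for VCR (SE 0.34, adjusted p = 0.159), 0.68 for RCM1-NPFA (SE 0.34, adjusted p = 0.551) and 0.09 for the combination (SE 0.34, adjusted p = 0.968). The VCR value was 0.38 without m5, the tumor with the most Dlk1.

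The Dlk1 level after both drugs was below the sum of the single-drug differences. The interaction of VCR and RCM1-NPFA was -1.50 on the log2 scale (SE 0.48, 95% interval -2.55 to -0.44) in edgeR's quasi-likelihood test. Its p was 0.00933 before adjustment and 0.293 after it, so Dlk1 did not pass. The interaction was also below 0 for Meg3 (-1.21, adjusted p = 0.34), Rian (-0.98, adjusted p = 0.402) and Grb10 (-0.67, adjusted p = 0.347), and none of the 10 genes was called. Without m5 the values were -0.97 for Dlk1, -0.77 for Meg3 and -0.58 for Rian, and without m5 and m9 -0.43 for Grb10. Of all tested genes 0% were called in the interaction, and 13.8% had an unadjusted p under 0.05, as had 3 of the 10. DESeq2 called 461 genes in the interaction and limma-voom 0, with none of the 10 in either.

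Igf2 varied widely within groups. Igf2 was at 6.81, 3.54 and 14.3 TPM in the vehicle tumors, 7.27, 5.77 and 7.80 TPM after VCR, 7.99, 23.8 and 3.77 TPM after RCM1-NPFA and 5.71, 4.74 and 9.25 TPM after both drugs. All groups overlapped, and m8 and m3 stood highest. The within-group SD of its log2 CPM was 0.91, larger than that of 96.78% of the tested genes, against a median of 0.19. The log2 difference between VCR and vehicle was -0.25 with a 95% interval of -1.62 to 1.11 (adjusted p = 0.848), so that changes of about that size in either direction were not detectable with 3 tumors a group. RCM1-NPFA differed by 0.58 (SE 0.62) and the combination by -0.31 (SE 0.62).

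H19 was abundant in every tumor. H19 was at 188, 293 and 276 TPM in the vehicle tumors, 155, 124 and 212 TPM after VCR, 294, 244 and 188 TPM after RCM1-NPFA and 502, 119 and 198 TPM after both drugs. The combination group held both the highest and the lowest tumor of the 12, and all groups overlapped with vehicle. The log2 difference between VCR and vehicle was -0.58 (SE 0.41, 95% interval -1.47 to 0.32, adjusted p = 0.434) in edgeR. DESeq2 on these 2 groups alone gave an adjusted p of 0.051, which passed the threshold of 0.1. No other alternative called H19 after VCR. RCM1-NPFA differed from vehicle by -0.04 and the combination by 0.07 on the log2 scale, with SE of 0.41 each.

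Cdkn1c, of the same chromosome arm, was low in every tumor. Cdkn1c was at 0.87, 1.44 and 1.01 TPM in the vehicle tumors, 1.30, 1.58 and 1.03 TPM after VCR, 1.06, 1.41 and 1.70 TPM after RCM1-NPFA and 1.07, 0.807 and 1.50 TPM after both drugs. Its groups overlapped in each comparison with vehicle, and the log2 differences were 0.32, 0.36 and 0.02 with SE of 0.31 each. These values rested on 27 to 59 counts per tumor.

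Grb10, the receptor adaptor, had similar log2 differences from vehicle after each treatment, none of them past the threshold in edgeR. DESeq2 called it after VCR on all 12 tumors and on the 2 groups alone, and limma-voom did not. Grb10 was at 2.88, 2.56 and 1.67 TPM in the vehicle tumors, 2.96, 4.13 and 3.81 TPM after VCR, 3.44, 3.22 and 4.14 TPM after RCM1-NPFA and 4.65, 3.67 and 2.82 TPM after both drugs. The VCR and RCM1-NPFA tumors all lay above the vehicle tumors, as did the combination tumors in CPM but not in TPM, where m12 lay just below m1. The log2 difference was 0.68 for VCR (SE 0.21, adjusted p = 0.104), 0.62 for RCM1-NPFA (SE 0.21, adjusted p = 0.428) and 0.63 for the combination (SE 0.21, adjusted p = 0.666). All 3 comparisons share the same vehicle tumors. The within-group SD of its log2 CPM was 0.27, below that of the other members except Peg3 (0.23) and above the median of 0.19 over all tested genes.

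Of the Grb10 transcripts, the one that begins at chr11:12037401 held 76.6% of the gene's mean TPM and another that begins at chr11:12027971 held 12.6%. Only the 250 bases before the annotated start at chr11:12037420 (GRCm38, minus strand) are printed, as the stretch nearest to the more abundant start, with matches to GGGCGG on either strand in capitals.
Grb10: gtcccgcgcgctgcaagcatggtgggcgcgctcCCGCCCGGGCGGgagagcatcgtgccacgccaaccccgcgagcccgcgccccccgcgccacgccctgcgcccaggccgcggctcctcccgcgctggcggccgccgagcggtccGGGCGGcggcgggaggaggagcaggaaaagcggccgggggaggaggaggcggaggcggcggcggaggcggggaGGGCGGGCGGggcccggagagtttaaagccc
This stretch held 5 matches, at 217, 211, 104, 31 and 27 bases before the start, more than in either window printed above. The Grb10 window at chr11:12027971 held none. G and C made up 80% of the promoter window at chr11:12037420 and 52.3% of that at chr11:12027971. They made up 53.7% and 49.3% of the printed Meg3 and Rian windows.

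Peg3, Mest and Plagl1 completed the set. Peg3 was at 43.6, 38.1 and 38.0 TPM in the vehicle tumors, 30.8, 24.1 and 38.9 TPM after VCR, 30.8, 46.4 and 33.1 TPM after RCM1-NPFA and 36.7, 30.7 and 33.4 TPM after both drugs. All combination tumors lay below all vehicle tumors, and the log2 difference there was -0.27 (SE 0.17, 95% interval -0.63 to 0.10, adjusted p = 0.743). The difference was -0.30 for VCR (SE 0.17, adjusted p = 0.311) and -0.09 for RCM1-NPFA (SE 0.17, adjusted p = 0.904).

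Mest was at 236, 337 and 292 TPM in the vehicle tumors, 377, 240 and 350 TPM after VCR, 232, 473 and 239 TPM after RCM1-NPFA and 302, 236 and 308 TPM after both drugs. The groups overlapped, and m8, which also held the most Igf2 and Peg3, was the highest tumor. The log2 differences of Mest from vehicle were 0.22, 0.16 and -0.05, with SE of 0.27 each. Plagl1 was at 0.162, 0.137 and 0.0112 TPM in the vehicle tumors, 0.144, 0.143 and 0.187 TPM after VCR, 0.270, 0.0388 and 0.0698 TPM after RCM1-NPFA and 0.264, 0.0823 and 0.167 TPM after both drugs. Its groups overlapped, m3 held 1 count, and the differences of 0.74, 0.40 and 0.73 on the log2 scale had SE of 0.76, 0.77 and 0.76, so no change in Plagl1 was detectable here.

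**Figure D2:**
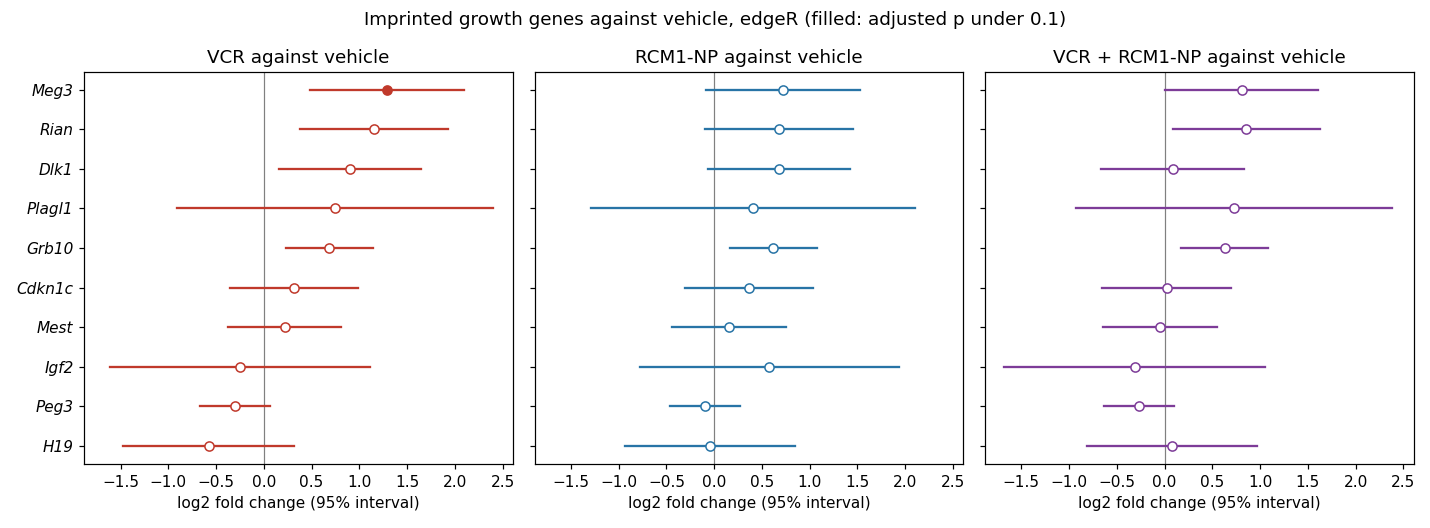
Log2 fold change of each imprinted gene against vehicle after VCR, RCM1-NPFA and both drugs (points, x axis in log2 units), with 95% intervals as bars and a filled point where the adjusted p was under 0.1. Only Meg3 after VCR is filled. The VCR interval of Meg3, 0.48 to 2.10, lies above 0, and those of Igf2 and Plagl1 are the widest.

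Across the 10 genes, VCR and vehicle tumors did not overlap for Meg3, Rian and Grb10, all higher after VCR, that is for 3 of 10 genes, where 13.5% of all tested genes were higher without overlap. The median log2 difference was 0.50 over the 10 genes and 0.0016 over all tested genes. At an unadjusted p under 0.05 the VCR comparison held 4 of the 10 genes (22.1% of all tested genes). With a term for Y-linked transcripts, an alternative chosen after seeing the data, 3 of the 10 genes were called in the VCR comparison, against 376 of 17602 genes (2.14%). These were Rian (log2 difference 1.42, SE 0.20, adjusted p = 0.0439), Meg3 (1.47, SE 0.27, adjusted p = 0.0693) and Grb10 (0.80, SE 0.18, adjusted p = 0.0925), while Dlk1 had 1.00 (SE 0.30, adjusted p = 0.126). Over the 12 tumors Rian ran together with Meg3 (r = 0.929) and with Grb10 (r = 0.856), so these 3 genes are not independent of each other in such counts.

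After RCM1-NPFA, edgeR called none of the 10 genes and 0% of all genes against vehicle, with 1 of the 10 (Grb10) and 9.78% of all genes at an unadjusted p under 0.05. Dlk1 and Grb10 were higher without overlap, which 5.56% of all genes were. The median difference was 0.49 over the 10 genes and 0.0028 over all tested genes. DESeq2 called 277 genes and limma-voom 0, with none of the 10 in either.

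After both drugs, edgeR again called none of the 10 genes and 0% of all genes against vehicle, with 3 of the 10 (Grb10, Rian and Meg3) and 7.31% of all genes at an unadjusted p under 0.05. Rian and Grb10 were higher without overlap, as were 7.1% of all genes, and Peg3 was lower without overlap, as were 5.53%. The median difference was 0.08 over the 10 genes. DESeq2 called 61 genes and limma-voom 0, with none of the 10 in either.

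Against the single drugs, the combination gave no call in edgeR among the 10 genes or among all genes (0% in both comparisons). Against VCR, Dlk1 was lower by -0.81 (95% interval -1.56 to -0.07, adjusted p = 0.855), the only one of the 10 with an unadjusted p under 0.05, which 5.26% of all genes had, and the difference was -0.29 without m5. DESeq2 called 11 genes on all 12 tumors and 44 on the 2 groups alone, and limma-voom 0, with none of the 10 in any. Against RCM1-NPFA, Dlk1 differed by -0.59 (95% interval -1.34 to 0.15, adjusted p = 1.00) and was lower without overlap, as were 2.63% of all genes. At an unadjusted p under 0.05 that comparison held none of the 10 genes and 2.07% of all genes, and DESeq2 called 0 genes on all 12 tumors and 13 on the 2 groups alone, and limma-voom 0, with none of the 10 in any.

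The levels of the 10 genes were then correlated across the 12 tumors, in a family of 55 relations made of the 45 pairs and each gene against the muscle fibre genes. Meg3 and Rian had Pearson's r = 0.929 (permutation p = 1e-05, the smallest that 100000 permutations can give, adjusted p = 0.00055) and Spearman's rho = 0.972 (permutation p = 1e-05, adjusted p = 0.00055). The r was 0.885 without m3 and m5, 0.857 on deviations from the group means, 0.927 on deviations from the means of the tumors with and without Y-linked transcripts, and 0.945 among the 7 tumors with them. The ratio of Meg3 to Rian TPM stayed between 2.15 and 3.99 over the 12 tumors. The Meg3 and Rian levels thus ran in parallel within groups as well as between them.

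Igf2 and H19, the other pair that shares control elements, did not show this. Their r was 0.216 (permutation p = 0.50, adjusted p = 0.644) and rho 0.245 (permutation p = 0.444, adjusted p = 0.758), with r = 0.0133 without m3 and m8 and 0.208 on deviations from group means. Among the 7 tumors with Y-linked transcripts r was 0.758. The ratio of H19 to Igf2 TPM ranged from 10.2 to 88.0, an 8.59-fold range against 1.86-fold for Meg3 and Rian.

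**Figure D3:**
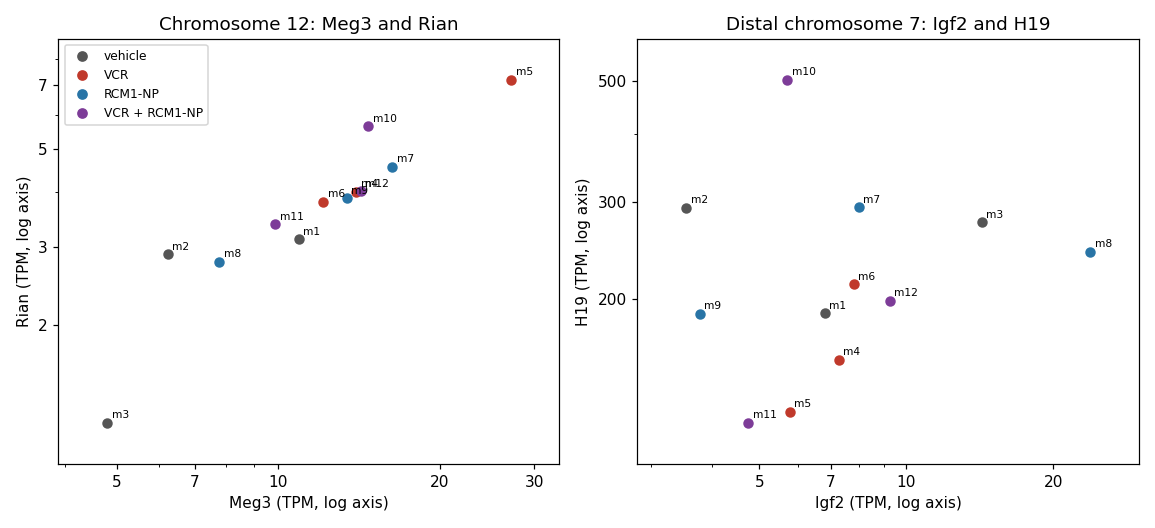
Rian against Meg3 (left) and H19 against Igf2 (right) in the 12 tumors, in TPM on log axes, coloured by treatment group. The left points follow a line (r = 0.925 for log2 TPM, 0.929 for log2 CPM), with m3 lowest and m5 highest. The right points scatter (r = 0.158 for log2 TPM, 0.216 for log2 CPM).

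Dlk1 was less closely tied to its noncoding neighbours. Its r was 0.580 with Meg3 (permutation p = 0.0484, adjusted p = 0.177, rho 0.343, permutation p = 0.275, adjusted p = 0.658) and 0.623 with Rian (permutation p = 0.0379, adjusted p = 0.157, rho 0.315, permutation p = 0.319, adjusted p = 0.699). Without m3 and m5 these were -0.086 and -0.094, so both relations rested on those 2 tumors.

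Beyond Meg3 and Rian, 5 relations among pairs of the 10 genes passed the adjusted threshold of 0.1 by Pearson's r and none of them by Spearman's rho. Grb10 and Rian had r = 0.856 (permutation p = 0.00057, adjusted p = 0.0157, rho 0.727, permutation p = 0.0102, adjusted p = 0.140), with 0.635 without m2 and m3, 0.724 within groups and 0.814 among the 7 tumors with Y-linked transcripts. Plagl1 and Rian had r = 0.764 (permutation p = 0.00417, adjusted p = 0.0628, rho 0.713, permutation p = 0.0127, adjusted p = 0.140), with 0.411 without m3 and m8, 0.754 within groups and 0.873 among the 7. Meg3 and Grb10 had r = 0.749 (permutation p = 0.00538, adjusted p = 0.0628, rho 0.622, permutation p = 0.0348, adjusted p = 0.191), with 0.465 without m3 and m5, 0.509 within groups and 0.637 among the 7. These 3 relations were positive, and m3, lowest in Meg3, Rian, Plagl1 and Grb10, was left out in each of the reduced values. All 3 also missed the threshold without m3 alone, with r of 0.703, 0.520 and 0.618 in this order. Plagl1 and Rian missed it without m8 too, and Meg3 and Grb10 without m2 or m5 and in TPM (r = 0.735, adjusted p = 0.102). Plagl1 had 1 to 26 counts per tumor, with 1 in m3, and the part of counting error in its relations was not tested.

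Meg3 and Plagl1 had r = 0.694 (permutation p = 0.0124, adjusted p = 0.0971, rho 0.706, permutation p = 0.0127, adjusted p = 0.140), with 0.620 without m3 and m5, 0.645 within groups and 0.909 among the 7 tumors with Y-linked transcripts. Meg3 and Peg3 had r = -0.708 (permutation p = 0.0104, adjusted p = 0.0957, rho -0.678, permutation p = 0.0186, adjusted p = 0.146), with -0.511 without m3 and m5, -0.579 within groups and -0.612 among the 7. This was the only negative relation among the 7 of 55 that passed by Pearson's r. Both relations lay close to the threshold. In TPM both missed it, in turn with adjusted p of 0.176 and 0.139 (permutation tests). With 1 CPM added in place of 0.1, Meg3 and Plagl1 also missed it (r = 0.662, adjusted p = 0.118). Leaving out 1 tumor lost the call on Meg3 and Plagl1 in 10 of 12 cases (all but m2 and m5, adjusted p up to 0.380), with the lowest r, 0.527, without m3. For Meg3 and Peg3 the call was lost in 8 of 12 cases (m3 to m9 and m12, adjusted p up to 0.416), with r = -0.559 without m5.

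Muscle fibre RNA was compared with the 10 genes in the same way. Grb10 had r = 0.732 with the summed fibre genes (permutation p = 0.00571, adjusted p = 0.0628, rho 0.783, permutation p = 0.0043, adjusted p = 0.118), 0.633 without m5 and m9, 0.512 within groups and 0.735 among the 7 tumors with Y-linked transcripts. This relation missed the threshold without m3, m5, m9 or m12, with r of 0.675 to 0.736. It also missed it without m5 and m9 together and in TPM (r = 0.6905, permutation test, adjusted p = 0.1105). The r of Meg3 with the fibre genes was 0.614 (permutation p = 0.0327, adjusted p = 0.157, rho 0.510, permutation p = 0.0941, adjusted p = 0.370) and that of Rian 0.596 (permutation p = 0.0345, adjusted p = 0.157, rho 0.580, permutation p = 0.0519, adjusted p = 0.238). For Meg3 and Rian in turn, r was 0.495 and 0.512 without m5 and m9, 0.236 and 0.206 within groups, and 0.618 and 0.620 among the 7. On deviations within the Y-linked classes it was 0.714 and 0.745 (permutation tests, adjusted p = 0.0653 and 0.0636). Peg3 ran the other way, with r = -0.640 (permutation p = 0.026, adjusted p = 0.143, rho -0.587, permutation p = 0.0494, adjusted p = 0.238), -0.516 without m5 and m9, -0.466 within groups and -0.723 among the 7. H19 had r = -0.510 (permutation p = 0.0908, adjusted p = 0.263, rho -0.622, permutation p = 0.0341, adjusted p = 0.191), -0.401 without m5 and m9, -0.424 within groups and -0.711 among the 7. Of the 10 genes, Grb10 was the one whose relation to fibre RNA passed. Tumor m9 held the most fibre RNA, 21800 CPM, with Meg3 at 13.4 TPM, below m7 with 420 CPM of fibre RNA and Meg3 at 16.3 TPM. The summed level of the 7 fibroblast genes was also above vehicle in every VCR tumor and every combination tumor, and was highest in the RCM1-NPFA tumors m7 and m8. Taken singly, 3 of the 7 were higher without overlap after VCR and 1 after both drugs, where 13.5% and 7.1% of all tested genes were. The part of muscle fibre or fibroblast RNA in the Meg3 difference was not tested.

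**Figure D4:**
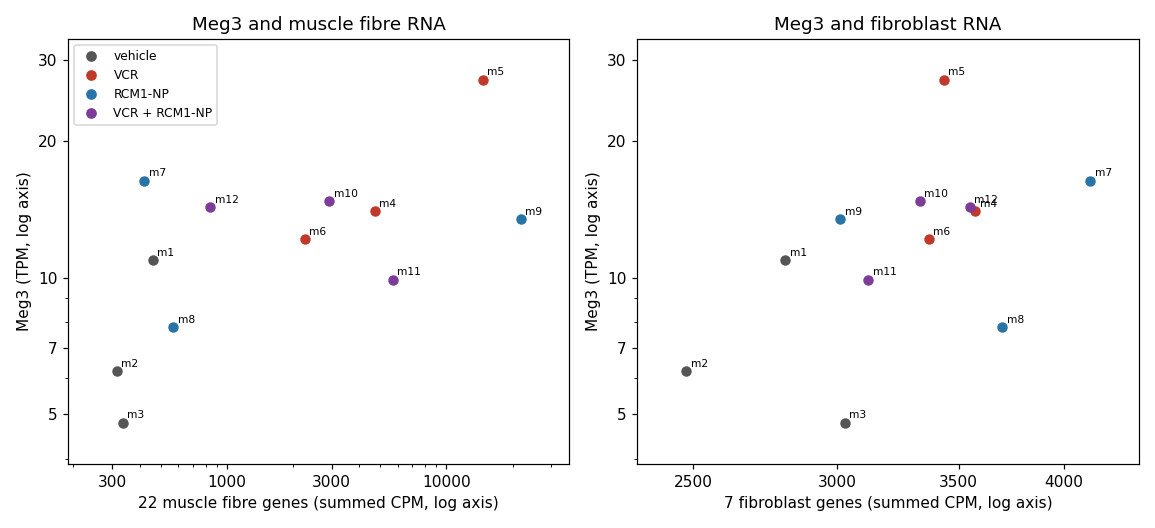
Meg3 (TPM) against the summed CPM of 22 muscle fibre genes (left) and of 7 fibroblast genes (right) in the 12 tumors, on log axes, coloured by treatment group. Tumor m9 has the most fibre RNA, 21800 CPM, with 13.4 TPM of Meg3, and m5, with 14610 CPM, has the most Meg3, 27.2 TPM.

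Genes related to Igf2 were then examined as a list of 15, of which 14 were tested. The list held receptors, adaptors, binding proteins, the growth factor gene Igf1, and Igf2bp1, Igf2bp2 and Igf2bp3, whose products bind RNA. After VCR, 2 rose and 2 fell, where 5.55% of all tested genes were called, with a median log2 difference of -0.08. DESeq2 called 5 of the 14 and limma-voom 3. The binding proteins Igfbp7 (0.72, SE 0.13, adjusted p = 0.0651) and Igfbp4 (0.66, SE 0.18, adjusted p = 0.0870) rose. The receptors Igf1r (-0.30, SE 0.06, adjusted p = 0.0694) and Insr (-0.38, SE 0.11, adjusted p = 0.0967) fell. Igf1r was at 16.0, 15.5 and 13.7 TPM in the vehicle tumors and 11.1, 11.2 and 13.2 TPM after VCR. Igfbp7 was at 118, 84.1 and 80.7 TPM in the vehicle tumors and 145, 163 and 130 TPM after VCR. Neither pair of groups overlapped. Irs1, a receptor adaptor with one of the larger differences after both drugs, had -0.34 there without passing the test. Igf2r, the imprinted receptor that clears IGF2, was at 3.40 to 6.13 TPM over the 12 tumors and was not called.

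Genes that keep imprints were measured as a list of 11, among them Ctcf, Dnmt1, Trim28 and Zfp445, and edgeR called none of them in any comparison with vehicle, nor did limma-voom. The median difference after VCR was -0.16. Zfp445, a zinc finger protein that binds imprinting control regions, had -0.36 after VCR (adjusted p = 0.111), where DESeq2 called 1 of the 11. At an unadjusted p under 0.05 the edgeR counts were 2 of 11 after VCR (22.1% of all tested genes), 2 after RCM1-NPFA (9.78%) and 0 after both drugs (7.31%). After both drugs the members with the largest differences were Dppa3 (0.39), Dnmt3a (-0.17) and Zfp445 (-0.17), none of them called.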

How the data were processed

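RNA-seq of 12 tumors was analysed, 3 in each of 4 groups taken from the sample titles. The 10 genes and all gene lists were chosen with earlier results of these data known. The authors made poly-A libraries and assigned reads to transcripts of GRCm38 with kallisto. For each transcript they deposited estimated counts, which are not normalized and need not be whole. Also deposited by the authors were TPM values, kallisto's levels scaled to transcript length and to library size. The kit named is stranded but the libraries are called non-stranded, so reads of genes that overlap on the other strand may be mixed. How many reads were shared between near-identical transcripts is not given in the sources used here. The submitters' processing notes also name DESeq2.

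RefSeq genes were found for all 120299 transcripts, and their estimated counts were summed per gene and rounded. edgeR 4.0.16 (R 4.3.3) was used with filterByExpr (minimum count 10, leaving 17602 genes), TMM scaling and the quasi-likelihood F test in a single fit of the 4 groups. The contrasts were each treatment against vehicle, the combination against each drug, and their interaction. P-values were two-sided and adjusted by Benjamini-Hochberg over all 17602 genes, with a threshold of 0.1. SE values were derived from the F statistic. The depth was 29342195 to 32108055 counts a tumor, which leaves counting error largest for genes of few counts such as Plagl1. Correlations used log2(CPM + 0.1) and two-sided permutation tests with 100000 resamples (scipy 1.17.1), adjusted over 55 relations. The shuffling ignored the treatment groups, so these p-values do not set differences between groups apart. The r values on deviations from group means were not tested. DESeq2 1.42.0 and limma-voom (limma 3.58.1) were alternatives. The edgeR script was tested on simulated counts. Within each group, counts of any pair of tumors differed by 14.5 to 85.8 in chi-square per degree of freedom, so no library was a copy of another of its group. The labels number each tumor but say nothing more on whether mice were independent, so p-values measure the spread between these tumors. No batch is given in the labels.

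All 10 genes were named, with the value of each tumor. From each other list, named genes were those called against vehicle and the 3 with the largest difference after both drugs, at most 5 a list. For Igf2, H19 and Meg3, the 5 genes with the highest r were named. Zfp445 after VCR was added after its value was seen. Sequences came from RefSeq tables (GRCm38.p6), which held promoters of 8 of the 10 genes.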

Additional observations from a re-analysis of the deposited data

How the results depend on the processing

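No paired analysis was possible because the tumor numbers m1 to m12 are not shared between groups. Among the 10 genes, the count called after VCR was 1, and it became 3 with DESeq2 on all 12 tumors, 4 with DESeq2 on the 2 groups alone, 3 with the Y-linked term, and 0 with limma-voom, with edgeR on the 2 groups alone, at a threshold of 0.05 and without m5 and m9. Leaving out 1 tumor gave 0 to 2. Over all genes the VCR count of 977 became 599 without a filter, 2285 and 1538 with DESeq2 on all tumors and on the 2 groups, 465 with edgeR on the 2 groups, 9 at a threshold of 0.05, 253 without m5 and m9 and 376 with the Y-linked term, and 0 to 2012 without 1 tumor. After RCM1-NPFA edgeR called 0 genes (0 to 8 without 1 tumor) and DESeq2 277 and 37, and after both drugs edgeR called 0 (0 to 44 without 1 tumor, 138 without m5 and m9) and DESeq2 61 and 261. Correlations past the threshold numbered 7, and 3 in TPM, 4 without m5 and m9 and 12 on deviations within Y-linked classes, with 1 to 8 without 1 tumor. Those lost in TPM were Grb10 with the fibre genes and Meg3 with Grb10, Peg3 and Plagl1. Settings that leave out m5 and m9 together or use Y-linked transcripts were chosen after seeing the data. The cause of these shifts was not tested.

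Of 50 log2 differences and correlations, 39 kept their direction in every alternative, Meg3, Rian and Grb10 after VCR among them, and 11 turned in 24 of 1016 alternative values, each time without passing the threshold in the original fit. Igf2 after VCR was 0.024 with limma-voom (-0.65 to 0.54 without 1 tumor). H19 after RCM1-NPFA was 0.12 without m5 and m9 and 0.027 with the Y-linked term (-0.24 to 0.12), and after both drugs -0.14 with limma-voom (-0.67 to 0.43). Dlk1 after both drugs was -0.0041 with offsets for transcript length (-0.055 to 0.21). Leaving out 1 tumor also gave -0.37 to 1.37 for Igf2, -0.32 to 0.024 for Peg3, -0.29 to 0.34 for Mest and -0.78 to 0.98 for Plagl1 after RCM1-NPFA, and -0.71 to 0.48 for Igf2, -0.19 to 0.069 for Mest and -0.28 to 0.22 for Cdkn1c after both drugs. Counts per tumor were lowest for Plagl1 (1 to 26) and Cdkn1c (27 to 59), and counting error and spread between tumors were not separated.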

Other observations

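Of 36 other imprinted genes, 30 were tested, and after VCR 2 rose and 2 fell (edgeR quasi-likelihood test), where 5.55% of all tested genes were called, with a median log2 difference of -0.01. DESeq2 called 6 of the 30 and limma-voom 3. Dcn, which encodes the matrix proteoglycan decorin, rose by 1.28 on the log2 scale (SE 0.30, adjusted p = 0.0748), from 17.9, 8.51 and 7.10 TPM in the vehicle tumors to 21.0, 32.1 and 23.1 TPM after VCR. Ndn, which encodes necdin, rose by 1.57 (SE 0.45, adjusted p = 0.0964), from 0.906, 0.376 and 0.204 TPM to 1.24, 1.85 and 1.03 TPM. The noncoding RNA Kcnq1ot1 (-0.54, SE 0.15, adjusted p = 0.0949) and Sfmbt2 (-0.78, SE 0.21, adjusted p = 0.0888) fell, both at levels under 0.4 TPM. After RCM1-NPFA and after both drugs edgeR, DESeq2 and limma-voom called none of the 30, with 6 and 4 at an unadjusted p under 0.05 in edgeR (9.78% and 7.31% of all tested genes). Slc38a4, an amino acid transporter gene, had the largest difference of the list after both drugs, 3.48 (SE 1.66, adjusted p = 0.692), and its highest level, 8.50 TPM, was in m9, the tumor with the most muscle fibre RNA.

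The genes whose levels ran most like Meg3 over the 12 tumors were Aebp1 (r = 0.958), Myct1 (0.957), Ndn (0.949), Dcn (0.947) and Cpxm1 (0.946), with Rian at rank 10. For Igf2 they were Pald1 (0.982), Copz2 (0.947), Mrc2 (0.940), Pxmp4 (0.936) and Wdr6 (0.934), with H19 at rank 5290. For H19 they were Mtss2 (0.929), Arhgef17 (0.909), Rpl5 (0.890), Map3k12 (0.886) and Pld1 (0.884). These r values describe the top of 17602 genes over 12 tumors that share their libraries. Among 7 fibroblast genes, Col1a1 (0.76, adjusted p = 0.0870) and Pi16 (1.50, adjusted p = 0.0961) rose after VCR. Of these 7, the log2 difference was above 0 for 5 and below 0 for 2. Of the fibre genes 9 of 21 tested rose after VCR, against 5.55% of all tested genes. Of the myogenic regulators and embryonic muscle genes 3 of 10 tested rose (Des, Myod1 and Myog). DESeq2 called 19 and 4 of these, and limma-voom 1 and 2. Of 12 adipocyte, 7 endothelial and 8 leukocyte genes edgeR called none after VCR, with 0, 5 and 2 at an unadjusted p under 0.05 (22.1% of all tested genes), while DESeq2 called 0, 4 and 1 and limma-voom none.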
